A study of Mus musculus with 6 samples.

Results

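The genes described here are the SR proteins, the hnRNPs and the kinases and cofactors that act on them, a set of 39 splicing regulators that was read in thymocytes with and without Klf4. Members were the probes whose platform annotation gives 1 of the 39 symbols. Symbols were updated to current RefSeq names, since Srsf genes were formerly called Sfrs. In all, 72 of the 25697 probes matched, and they report 35 of the 39 genes and 35 of the 16593 genes named on the array. No probe was named for Srsf7, Srsf11, Hnrnpa0 or Clk1, which are not analysed here. The genes fall into 3 families, namely 10 SR or SR-like proteins, 18 hnRNPs and 7 kinases and cofactors.

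The series compared 3 knockout mice, Klf4fl/fl-CD4-Cre+, with 3 control mice, Klf4fl/fl-CD4-Cre-. Every mouse thus carried floxed Klf4 alleles on a C57/BL6 background and was 8 to 10 weeks old, and the knockouts alone carried the Cre transgene. Cre was driven by the CD4 promoter, so that the deletion is confined to cells that have switched that promoter on, and no control carried Cre without the floxed alleles. Thymus cells were enriched for CD4, which keeps the CD4+CD8+ double positives (DP) together with the more mature CD4 single positives (SP4), and their total RNA was hybridised to Illumina bead arrays, 1 array per mouse. The labels name 2 suppliers of the enrichment kit, without saying which mouse was prepared with which.

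Splicing removes introns from the primary transcript, and SR proteins and hnRNPs decide which exons are kept. SR proteins bind exonic sequences through RNA recognition motifs and recruit the splicing machinery through a tail rich in arginine and serine. That tail is phosphorylated by the CLK kinases in the nucleus and the SRPK kinases mainly in the cytoplasm. Many hnRNPs oppose inclusion of the exon they bind. In T cells the best known case is the CD45 gene Ptprc, whose variable exons are skipped with the help of hnRNP L and hnRNP LL. Many SR and hnRNP genes hold down their own level by splicing in an exon that sends the transcript to nonsense-mediated decay, so different parts of 1 gene can report different transcripts.

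Values are scores in z units, that is SDs of 1 array's probes, because the authors had standardised each array. They are not fold changes, equal differences in z units may stand for unequal changes on dim and bright probes, and no level of 1 gene is set against that of another. A difference is knockout minus control, tested with limma and adjusted by Benjamini-Hochberg over all 15418 probes that passed a filter on dim probes (a mean at or above the 40th percentile). Each gene was represented by its brightest probe on average over the 6 arrays, unless another probe is named. Of the 35 genes on the array 33 passed the filter. Tra2b and Hnrnpd did not, and had group means that differed by 0.00133 and 0.00953.

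T-lineage markers were bright, and their medians were 3.62 to 3.7 in knockout and 3.59 to 3.77 in control mice over 6 of 7 listed genes on the array. The medians of the 7 DP markers on the array were 1.37 to 1.79 and 1.33 to 1.82. In every mouse this median was the score of Cd1d1, so these ranges do not describe the other DP markers. Cd8b1 was among the brightest probes, whereas the Cd8a probe was dim, at mean percentiles of 9.06 in knockouts and 10.9 in controls. Of other cell types' markers, Pax5 (B cells), Itgam (myeloid cells), Foxn1 (thymic epithelium), Ncr1 (NK cells) and both erythroid markers were dim, which does not show absence. Apart from the erythroid list, each also held markers that passed the filter. Krt8 of thymic epithelium lay at mean percentiles of 64.4 in knockouts and 64.1 in controls, and Nkg7 of NK cells at 65.8 and 63.7. Krt5, Klrb1c, Cd79a, Ms4a1 and Adgre1 passed too. Lyz2 of myeloid cells was bright in both genotypes, at percentiles of 91.3 and 92.6, and so was Cd79b of B cells, at 80.9 and 81.4. The part of these cells in the results was not tested. Klf4 was lower in the knockouts on 2 of its 3 probes, with differences of -0.674 and -0.376 (adjusted p = 0.00265 and 0.046 in limma), and these were the only probes past the threshold among 15418. The third Klf4 probe differed by 0.0367, and which part of the gene each probe reports is not known here. Control 3 stood apart in genes of the sex chromosomes, with Xist at 2.12 against -0.558 to -0.404 in the other 5 mice. Eif2s3y was at -0.834 against 1.53 to 1.89, and Kdm5d at -0.749 against 0.271 to 0.561. By these genes control 3 read as female, and the other 5 mice, among them every knockout, as male. The part of sex in the results was not tested. Values without control 3 are given beside the results of each family.

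Promoter sequences of 3 members are shown because these had the smallest p on the lower side (Srsf3 and Srsf1) and on the higher side (Hnrnpa1). They are the 250 bases before the annotated start, from RefSeq's annotation of GRCm38.p6, and capitals mark the motif CACCC or its reverse complement GGGTG, the core of the sites that Krüppel-like factors bind. The search covered both strands, and the motif's 2 forms cannot overlap each other.
Srsf3 promoter, chr17:29032410-29032659, plus strand: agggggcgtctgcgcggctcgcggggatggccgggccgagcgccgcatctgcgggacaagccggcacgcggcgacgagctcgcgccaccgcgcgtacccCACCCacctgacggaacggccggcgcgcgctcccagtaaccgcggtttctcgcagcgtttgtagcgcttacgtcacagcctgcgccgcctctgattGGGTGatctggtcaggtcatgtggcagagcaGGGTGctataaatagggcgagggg
Srsf1 promoter, chr11:88047123-88047372, plus strand: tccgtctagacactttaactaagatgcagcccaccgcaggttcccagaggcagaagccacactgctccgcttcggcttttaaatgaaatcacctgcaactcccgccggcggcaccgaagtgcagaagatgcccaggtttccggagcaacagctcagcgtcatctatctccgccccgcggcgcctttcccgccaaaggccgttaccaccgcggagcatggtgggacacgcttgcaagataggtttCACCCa
Hnrnpa1 promoter, chr15:103240147-103240396, plus strand: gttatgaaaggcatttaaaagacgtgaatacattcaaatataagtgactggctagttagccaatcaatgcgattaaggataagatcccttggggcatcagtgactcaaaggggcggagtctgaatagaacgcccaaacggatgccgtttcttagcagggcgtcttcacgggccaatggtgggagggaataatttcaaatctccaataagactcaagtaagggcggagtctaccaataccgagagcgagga
In Srsf3 the motif was found 3 times, starting 151, 55 and 24 bases before the start, and in Srsf1 it was found 1 time, starting 6 bases before it. The Hnrnpa1 window held these letters on neither strand. Among members, 37 of 39 had a promoter in the table, with 52 windows in all, of which 27 (51.9%) held the motif, against 52% of all 32851 windows. A match of 5 letters is a description and not a binding site.

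No splicing regulator passed the test between the genotypes. Of the 33 tested genes, and of their 62 tested probes, limma called 0 higher and 0 lower (adjusted p under 0.05), where the background over all tested probes was 0% higher and 0.013% lower. With no adjustment, p was under 0.05 for 2 member genes on the higher side (6.06%) and 3 on the lower (9.09%), against 3.87% and 4.98% of the 10399 genes tested. In either direction these were 15.2% of members and 8.85% of all genes. By probe, 5 of 62 (8.06%) were higher and 6 (9.68%) lower at that level, against 4.07% and 4.75%, and 17.7% in either direction against 8.82%. These probe counts were 3 higher and 3 lower without knockout 1, and 2 higher and 3 lower without knockout 2. Leaving out a mouse also lowers precision, and the reason for these falls was not tested. With 1 mouse left out, the adjusted p of Srsf3 in limma ran from 0.174 without knockout 3 to 0.75 without knockout 2, and it was 0.281 with all mice. The groups did not overlap in 3 member genes higher (9.09%) and 2 lower (6.06%), against 6.39% and 7.78% of all genes. Among probes they did not overlap in 8 higher (12.9%) and 3 lower (4.84%), against 6.62% and 7.45%. Of the 33 differences 15 (45.5%) lay above 0, against 48.1% of all genes, and 18 (54.5%) below, against 51.9%. Their median was -0.00429, beside -0.00253 over all genes. By probe 33 lay above 0 and 29 below, which is 53.2% and 46.8% against 49.7% and 50.3%. Fewer cells of a type and less RNA per cell cannot be told apart in such bulk samples. The balance of signs also depended on scaling, since 22 differences lay above 0 and 11 below in the scores as deposited, without quantile normalization, and the median was then 0.0335. Without control 3, 32 members were tested, of which 17 lay above 0 and 15 below, with a median of 0.00413. The plot of all 33 differences shows how the genes order within each family.

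**Figure D1:**
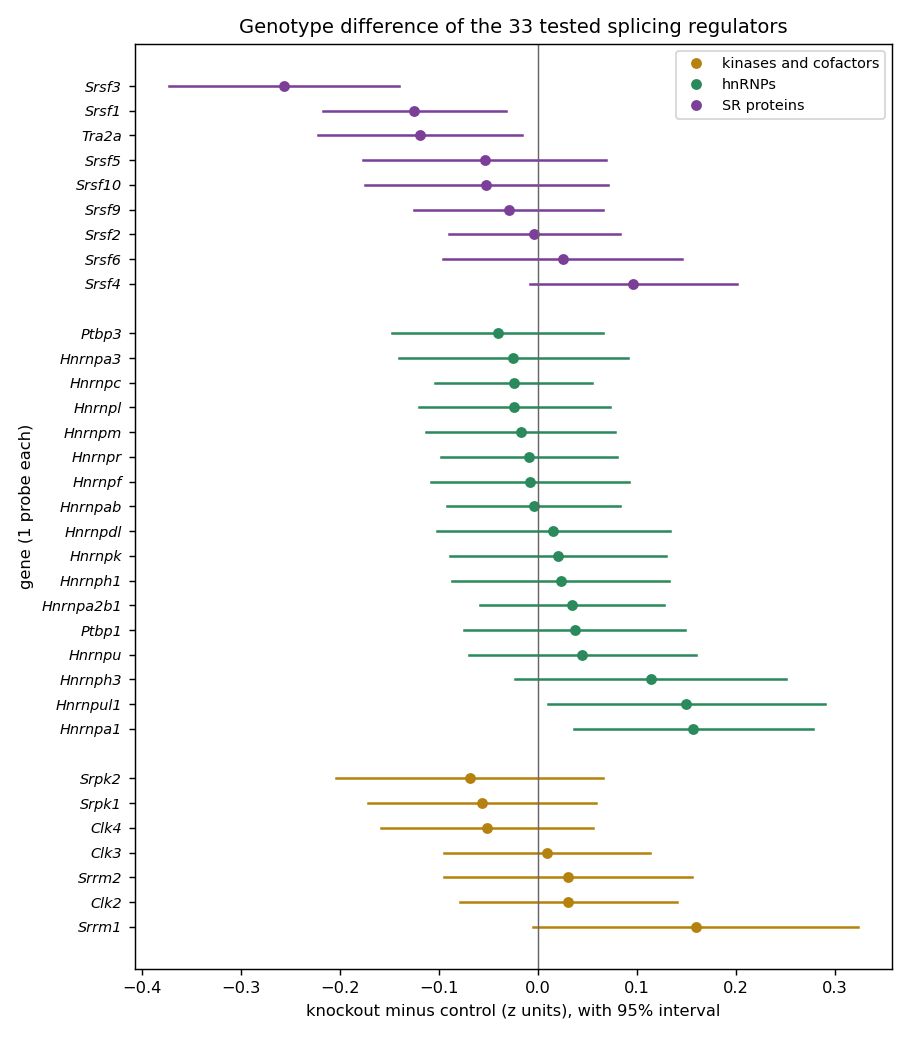
Knockout minus control for each of the 33 tested genes (x axis, z units), with the 95% interval of limma as a bar and 1 probe per gene, grouped by family. Srsf3 lies farthest to the left at -0.256, while most hnRNPs lie within 0.05 of 0. None of the 33 passed the threshold after adjustment.

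SR proteins lay mostly below 0. Differences below 0 were found for 7 of 9 tested members (77.8%), against 51.9% of all genes, and this share was not tested. The 9 ranged from -0.256 for Srsf3 to 0.0958 for Srsf4, with a median of -0.0522 beside -0.00253 over all genes. Of those below 0, Srsf2 was nearest to it, at -0.00382. The genes with the smallest p in the family were Srsf3, Srsf1, Tra2a, Srsf4 and Srsf5. None of the 9 passed the test. Below 0 there were 5 of 9 in the deposited scores, 6 without control 3 or knockout 2, and 8 without control 2. The median of the 9 stayed below 0 in every setting tried, from -0.0659 without control 2 to -0.0214 with median centring, and was -0.0417 without control 3.

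Srsf3, the smallest SR protein, which also aids the export of mature transcripts, had the smallest p of all members. Its brighter probe, ILMN_2733399, read 0.246, 0.125 and 0.251 in controls 1 to 3 and -0.058, -0.0482 and -0.0412 in knockouts 1 to 3. The 3 knockouts lay within a narrow band below all 3 controls. The means were 0.207 ± 0.0717 in controls and -0.0491 ± 0.00841 in knockouts (SD, n = 3 each), a difference of -0.256 (SE 0.0539, 95% interval -0.373 to -0.14) with an adjusted p of 0.281 in limma. The second probe, ILMN_2733398, read 0.0997, -0.0352 and 0.0106 in controls and -0.139, -0.219 and -0.0188 in knockouts. Here knockout 3 lay above control 2, so the groups overlapped, and the difference was -0.151 (SE 0.0611, adjusted p = 0.498). Leaving out 1 mouse at a time kept the first probe's difference between -0.298 and -0.233, and its adjusted p ranged from 0.141 to 0.75 over all settings tried.

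Srsf1, the founding SR protein SF2/ASF, binds purine-rich exonic enhancers. It read 3.17, 3.11 and 3.21 in controls and 3.05, 3 and 3.07 in knockouts. All 3 knockouts lay below all 3 controls, and knockout 3 came closest to control 2. The difference was -0.125 (SE 0.0428, adjusted p = 0.443), and -0.0911 on the other Srsf1 probe. In the deposited scores the first probe's difference was -0.088, and without control 3 it was -0.102.

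Tra2a is an SR-like protein, the mammalian relative of the fly sex-determination factor Transformer-2. Controls read 3.2, 3.06 and 3.14 and knockouts 3.01, 2.96 and 3.07. Knockout 3 came just above control 2, so the groups overlapped, and the difference of -0.119 (SE 0.0478) had an adjusted p of 0.498. It was -0.0787 in the deposited scores and ranged from -0.158 to -0.0843 with 1 mouse left out.

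Srsf4, known as SRp75, was the SR gene farthest above 0. It read 2.2, 2.22 and 2.29 in controls and 2.4, 2.3 and 2.3 in knockouts, so that the groups did not overlap but knockouts 2 and 3 nearly touched control 3. The difference was 0.0958 (SE 0.0485, adjusted p = 0.597), with 0.0629 left without knockout 1 and 0.123 without control 3. Srsf5 read 3.82, 3.75 and 3.79 in controls and 3.58, 3.78 and 3.84 in knockouts, where knockout 1 stood below the other 5 mice. Its difference of -0.0541 turned to 0.0246 without knockout 1 and to 0.0111 in the deposited scores, while its other probe gave -0.0641. The other SR genes, Srsf2, Srsf6, Srsf9 and Srsf10, differed by -0.0522 to 0.0248, each with an adjusted p of at least 0.833.

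**Figure D2:**
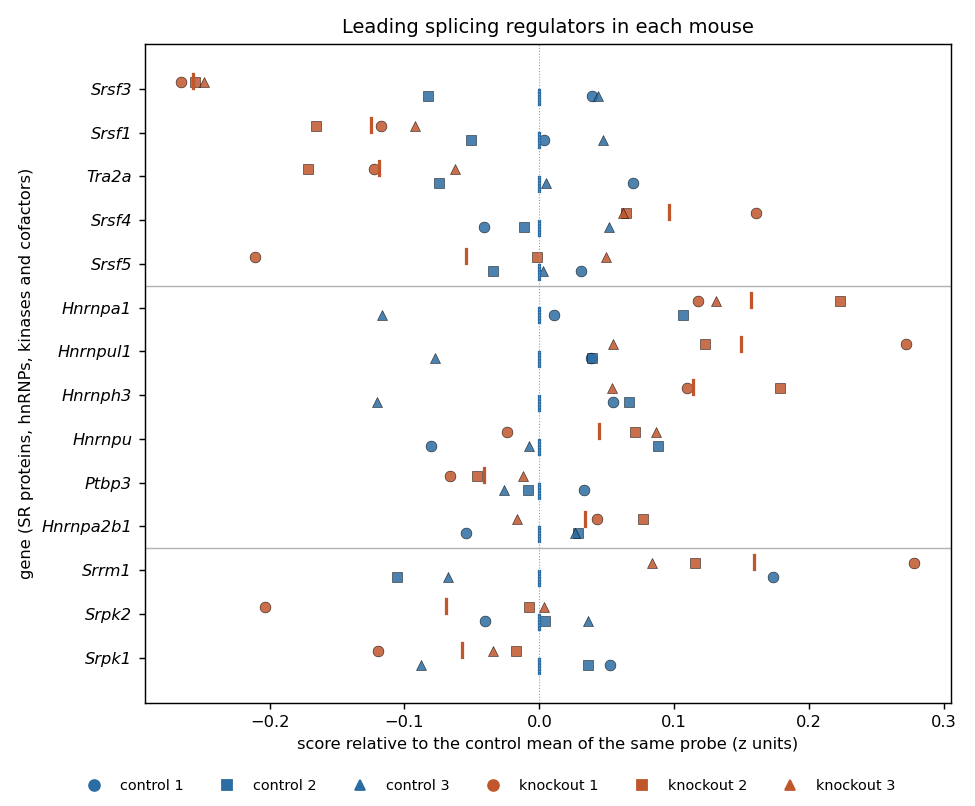
Scores of the 14 members with the smallest p in their family, in each mouse, relative to the control mean of the same probe (x axis, z units). Blue marks are the 3 controls, orange marks the 3 knockouts, and vertical ticks the group means. In Srsf3 the knockouts are packed closely below the control mean, by -0.256 on average, whereas in Srpk2 and Srsf5 a single knockout, knockout 1, is far from the other knockouts.

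The hnRNPs centred close to 0. Above 0 lay 9 of 17 tested genes (52.9%, against 48.1% of all genes) and below it 8. The median was 0.0155, and the range ran from -0.0411 for Ptbp3 to 0.157 for Hnrnpa1. Again 0 passed the test. In the deposited scores 14 of 17 were above 0 and the median was 0.0414, and without knockout 1 or control 1 the median turned to -0.00752 and -0.00273. Without control 3 it was 0.0349.

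Hnrnpa1 encodes a shuttling protein that silences exons by spreading along the transcript and opposing SRSF1. It read 2.8, 2.9 and 2.68 in controls and 2.91, 3.01 and 2.92 in knockouts. The groups did not overlap, but knockouts 1 and 3 exceeded control 2 by little. The difference was 0.157 (SE 0.0561, adjusted p = 0.461). It fell to 0.101 without control 3 and was 0.209 without control 2. A second, dimmer Hnrnpa1 probe gave 0.0603. The probe sequences are not used here, so matches to near-identical copies of Hnrnpa1 elsewhere in the genome were not assessed.

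Hnrnpul1, a relative of the scaffold protein hnRNP U, read 0.185, 0.185 and 0.0693 in controls and 0.419, 0.269 and 0.201 in knockouts. Every knockout was above every control, with knockout 1 the highest. The difference was 0.15 (SE 0.0646, adjusted p = 0.53) and 0.0888 without knockout 1. Its 3 other tested probes gave 0.0131, 0.0324 and 0.0736, and on those the groups overlapped.

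Hnrnph3 belongs to the hnRNP H/F group, which binds runs of G. It read 0.501, 0.513 and 0.326 in controls and 0.557, 0.625 and 0.501 in knockouts. Control 3 was the lowest mouse, and without it the difference of 0.114 (SE 0.0634, adjusted p = 0.644) was 0.0541. Its relatives Hnrnpf and Hnrnph1 differed by -0.00806 and 0.0228, although all 5 tested Hnrnph1 probes lay above 0, from 0.0228 to 0.142.

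Hnrnpu, the nuclear scaffold protein, read -0.431, -0.262 and -0.358 in controls and -0.374, -0.279 and -0.264 in knockouts, with overlapping groups and a difference of 0.0445 (adjusted p = 0.847). Ptbp3, a polypyrimidine-tract-binding protein of blood cells, read 1.26, 1.22 and 1.2 in controls and 1.16, 1.18 and 1.21 in knockouts. Those groups overlapped too, and the difference was -0.0411 (adjusted p = 0.849). Ptbp1, its widely expressed relative and a repressor of many exons, differed by 0.0368.

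Hnrnpa2b1, a close relative of Hnrnpa1, gave opposite signs on its probes. The brighter probe, ILMN_2615855, read 3.11, 3.2 and 3.2 in controls and 3.21, 3.25 and 3.15 in knockouts, a difference of 0.0343 (SE 0.0432, adjusted p = 0.854). On ILMN_2771074 controls read 0.545, 0.499 and 0.453 and knockouts 0.272, 0.284 and 0.34. All 3 knockouts lay below all 3 controls there, and the difference was -0.2 (SE 0.0536, adjusted p = 0.35). Which transcripts each probe reads is not known here.

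The remaining hnRNPs differed little. Hnrnpl, which silences the variable exons of CD45, differed by -0.0243, with controls at 3.4, 3.43 and 3.51 and knockouts at 3.48, 3.42 and 3.36. Hnrnpc, which binds uridine tracts, differed by -0.0245, Hnrnpm by -0.0175 and Hnrnpk, which binds runs of C, by 0.0199. Hnrnpa3, Hnrnpab, Hnrnpdl and Hnrnpr had differences from -0.0252 to 0.0155. Of these Hnrnpr lay just above the filter on dim probes, at mean percentiles of 40.4 in knockouts and 40.9 in controls. The signs of the 8 genes in this paragraph each turned in at least 1 of the settings tried.

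The kinases and cofactors showed no common direction. Above 0 lay 4 of 7 tested genes (57.1%, against 48.1% of all genes) and below it 3. The median was 0.00869, and the range ran from -0.0693 for Srpk2 to 0.159 for Srrm1. None passed the test. On the brightest probe of each gene 0 of the 7 had groups without overlap, against 6.39% higher and 7.78% lower of all genes. The median turned to -0.00205 without knockout 1 and to -0.0106 without control 2, and was 0.00314 without control 3.

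Srrm1, the coactivator SRm160 that bridges SR proteins to the splicing machinery, read 0.179, -0.0997 and -0.0617 in controls and 0.284, 0.121 and 0.0898 in knockouts. Control 1 lay above knockouts 2 and 3, so the groups overlapped. The difference was 0.159 (SE 0.0761, adjusted p = 0.58), and 0.246 without control 1 or 0.0997 without knockout 1. Its partner Srrm2 differed by 0.0304 on its brightest probe, while all 4 of its tested probes lay above 0. On the dimmest of them, ILMN_2678921, controls read -0.462, -0.467 and -0.462 and knockouts -0.361, -0.293 and -0.323, without overlap, a difference of 0.138 (SE 0.0416, adjusted p = 0.398).

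Among the SR protein kinases, Srpk2 read 0.889, 0.933 and 0.965 in controls and 0.725, 0.921 and 0.932 in knockouts. Knockout 1 alone was low, and without it the difference of -0.0693 (adjusted p = 0.794) was -0.00205. Srpk1 read 2.02, 2 and 1.88 in controls and 1.85, 1.95 and 1.93 in knockouts, a difference of -0.0571 (adjusted p = 0.801) that was -0.103 without control 3. The groups overlapped in both kinases.

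The CLK kinases, which phosphorylate SR proteins in the nucleus, differed by -0.0517 (Clk4), 0.00869 (Clk3) and 0.0306 (Clk2). Clk2 had 3 tested probes, all above 0. On ILMN_1237842 the controls read -0.1, 0.0552 and 0.162 and the knockouts 0.183, 0.216 and 0.203, which did not overlap, with a difference of 0.162 (SE 0.0647, adjusted p = 0.496). All 3 Clk4 probes lay below 0, at -0.0617 to -0.00294.

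Probes of 1 gene mostly fell on the same side of 0. Of 17 members with more than 1 tested probe, 14 had all probes on 1 side, 8 above and 6 below, which is 82.4% against 55.1% of the 2771 such genes on the array. This share was not tested. The exceptions were Hnrnpa2b1, Srsf2 and Srsf10. Srsf10 encodes a splicing repressor that responds to heat shock, and its 3 probes gave -0.189, -0.0522 and 0.0943. On ILMN_2698282, the lowest of these, controls read 0.373, 0.302 and 0.42 and knockouts 0.0465, 0.156 and 0.327, with knockout 3 above control 2. On ILMN_3090825, the highest, controls read -0.138, 0.014 and 0.0139 and knockouts 0.0283, 0.027 and 0.117, without overlap.

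**Figure D3:**
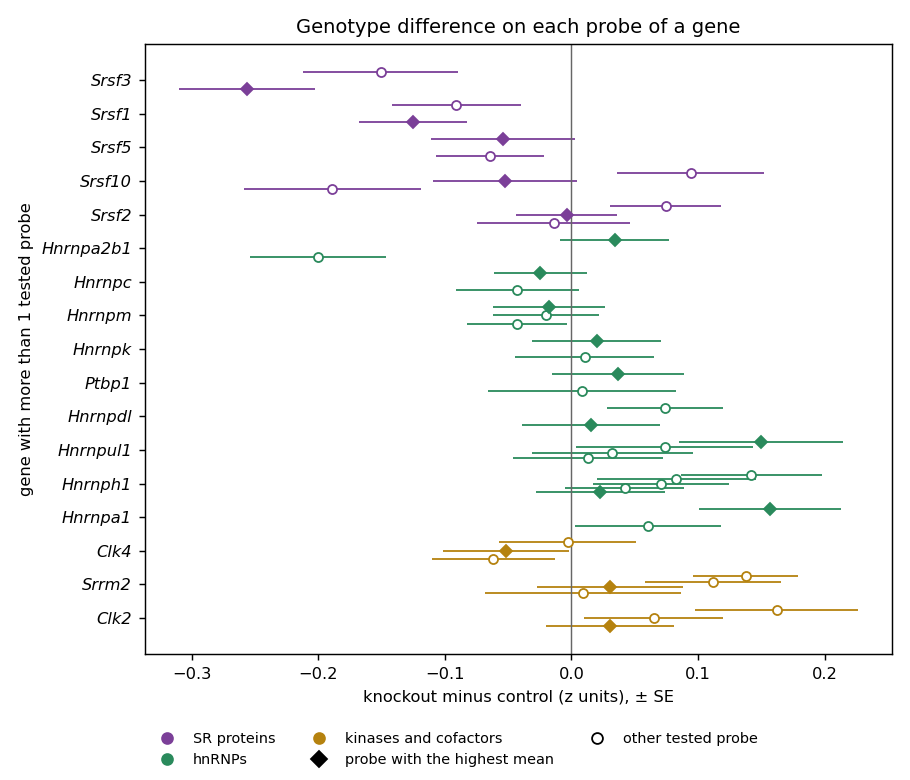
Knockout minus control (x axis, z units, ± SE) on every tested probe of the 17 members with more than 1, where diamonds mark the probe with the highest mean and open circles the others. Probes of Srsf3, Srsf1 and Clk4 all lie to the left of 0 and those of Hnrnph1, Hnrnpul1 and Srrm2 all to the right. In Srsf10 they range from -0.189 to 0.0943.

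The families were also followed mouse by mouse. Taking each gene's deviation from its mean over the 6 mice, the median SR deviation was 0.0647 in control 3 and -0.0491 in knockout 2, and between -0.0135 and -0.00293 in the other 4 mice. Control 3 was the highest mouse in 5 of 9 SR genes and in 11 of 33 members (33.3%), against 18.3% of all genes. In hnRNPs the medians ran from -0.0364 in control 1 to 0.0256 in knockout 1, and in kinases and cofactors from -0.0239 in control 2 to 0.038 in control 3. The genotypes overlapped in all 3 families. Within a genotype, the members' SDs had a median of 0.0548 in knockouts and 0.0625 in controls, beside 0.0558 and 0.0533 over all genes.

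**Figure D4:**
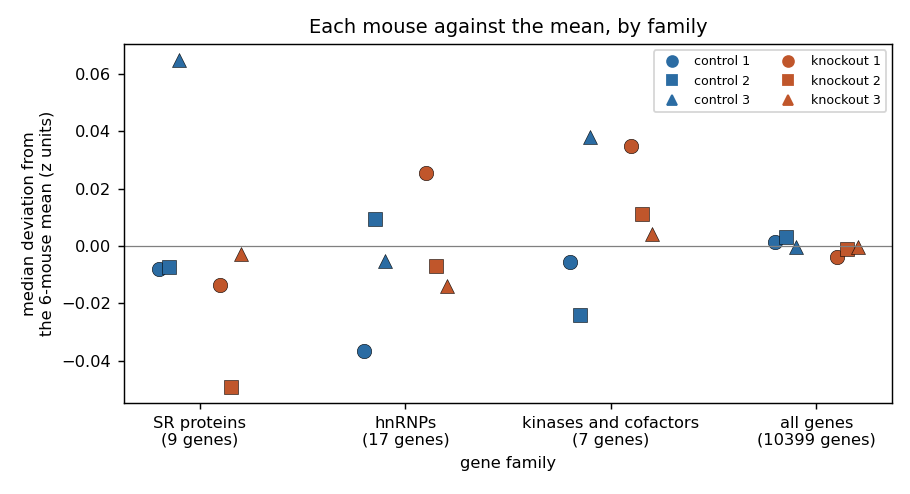
Median over a family's tested genes of the deviation from the gene's mean over the 6 mice (y axis, z units), for each mouse, with all 10399 tested genes on the right. Control 3 stands at 0.0647 and knockout 2 at -0.0491 among the 9 SR genes, and knockouts and controls overlap in each family.

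These data bound the differences they could show. The 95% interval had a median half-width of 0.11 over the members. For 28 of 33 members it lay within 0.25 of 0 on either side, a smaller share than the 91.4% of all genes. The exceptions reached farthest for Srsf3, to -0.373, and for Srrm1, to 0.323. Intervals are those of single genes and are not adjusted for the number of tests. Those of Srsf3, Srsf1, Tra2a, Hnrnpa1 and Hnrnpul1 leave out 0, while the adjusted p of these genes was 0.281 to 0.53 in limma.

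Other genes of the splicing pathway were read from lists, 91 of 102 genes on the array and 81 tested. None of the 81 passed. Before adjustment, p was under 0.05 for 3 on the higher side (3.7%) and 4 on the lower (4.94%), beside 3.87% and 4.98% of all genes. The groups did not overlap in 6 higher (7.41%) and 10 lower (12.3%), beside 6.39% and 7.78%. The median difference was 0.0115.

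Of the U1 and Sm core, 8 genes were tested with a median of 0.00612. The U1 protein gene Snrnp70 had the smallest p there, at 0.0877 (adjusted p = 0.701), followed by the Sm genes Snrpb at 0.0368 and Snrpg at -0.0237. Among 11 genes of U2 and 3′ splice site recognition the median was -0.0152, with U2af2, which binds the polypyrimidine tract, at -0.1, Snrpa1 at 0.0995 and Sf3a1 at -0.0815 (adjusted p = 0.597 to 0.639). The 13 tri-snRNP genes had a median of 0.0263, with Prpf3 at -0.098, Lsm5 at -0.0839 and Lsm6 at 0.0782. The 10 genes of the Prp19 complex and the late helicases had a median of 0.031, with Cdc5l at -0.116, the second-step factor Slu7 at 0.168 and the helicase Dhx15 at -0.0738 (adjusted p from 0.472 to 0.648).

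Among 27 other splicing regulators the median was 0.00498. Rbm5, a regulator of exon skipping in apoptosis genes, read 2.81, 2.82 and 2.92 in controls and 2.65, 2.64 and 2.76 in knockouts. Hnrnpll, the CD45 exon silencer, read 1.83, 1.87 and 2.04 in controls and 1.76, 1.66 and 1.76 in knockouts. In both genes every knockout was below every control, with differences of -0.165 (SE 0.0497, adjusted p = 0.398) and -0.183 (SE 0.0595, adjusted p = 0.423). Syncrip, also called hnRNP Q, differed by 0.142 (adjusted p = 0.466).

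The 9 genes of the exon junction complex and nonsense-mediated decay had a median of -0.0526, with the decay factors Smg5 and Smg1 at -0.109 and -0.138 and the junction protein gene Rbm8a at -0.0663. Of the 3 importins that carry SR and hnRNP proteins into the nucleus, Tnpo2 differed by 0.101, Tnpo3, the SR protein carrier, by -0.0388 and Tnpo1, the carrier of hnRNP A1, by -0.0147. Immediate early and stress genes, which respond to how cells are handled, lay below 0 in 10 of 13 tested genes. That is 76.9%, against 51.9% of all genes, and the median was -0.0849. None passed the test. Before adjustment, limma p was under 0.05 for 1 higher (7.69%) and 4 lower (30.8%), against 3.87% and 4.98% of all genes. The groups did not overlap in 0 higher and 2 lower (15.4%), against 6.39% and 7.78%. The smallest p belonged to Hsp90aa1 at -0.161, Atf3 at -0.111 and Ier2 at -0.167 (adjusted p = 0.398, 0.459 and 0.482). The farthest from 0 was on the other side, Fosb at 0.397 (adjusted p = 0.498), and Jund was at 0.163 (adjusted p = 0.57), both named after their values were seen. DP markers were below 0 in 5 of 6 tested genes, against 51.9% of all genes, with a median of -0.0423. Dntt differed by -0.137 and Rag1 by -0.0767 (adjusted p = 0.415 and 0.644 in limma), and in both every knockout was below every control. The 1 DP marker above 0 was Cd1d1, at 0.0911. Of the 4 SP4 markers tested 2 lay above 0 and 2 below, with a median of 0.0236. The part of these lists in the differences of the splicing regulators was not tested.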

How the data were processed

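Transcript levels were measured on 6 arrays, 1 per mouse. The table deposited by the authors holds z scores, since every array's column has mean 0 and SD 1. Its scale before that step (linear or log) and any background correction are unknown here, and no detection p-values were used. The submitters' processing notes name GenomeStudio 2010.1 without its role. The table held 0 columns of other samples. Probe names came from GEO's annotation of the platform, and current RefSeq symbols (GRCm38.p6) were looked up by gene identifier (23978 of 25697 probes with 1 symbol, 0 with several and 1719 with none). 23962 identifiers were found in RefSeq.

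Scores were quantile normalized between arrays, 10279 dim probes were left out, and limma 3.58.1 in R 4.3.3 (lmFit, eBayes with a trend, two-sided) was fitted to the other 15418, with a threshold of 0.05 after Benjamini-Hochberg adjustment. The planned test was applied to scores rather than log values. The fit was tested on simulated data with known differences. Replicates are separate mice, and 3 arrays per genotype limit the precision. The members and lists were chosen with earlier results of these data known. Values in every mouse are given for the members with the smallest p, namely 5 SR proteins, 6 hnRNPs and 3 kinases or cofactors, and up to 3 genes per other list. Single probes outside that rule, and Hnrnpl, were named after their values were seen. Protein sequences were not used here, so the planned counts of arginine-serine repeats were not made. Alternatives were other scaling, filters, variance models, array weights, a replicate block, probe averaging and leaving out each mouse.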

Additional observations from a re-analysis of the deposited data

How the results depend on the processing

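No member probe passed the threshold under any alternative fit, namely other scalings, filters, variance models, array weights, the replicate block and each mouse left out. Over all probes, 0 were called higher and 2 lower (both of Klf4). The higher count was 1 with robust variance and 2 with the replicate block. The lower count was 0 with the stricter filter and 1 without a trend. With 1 mouse left out, the higher count was 0 to 1 and the lower count 1 to 4. The labels do not say whether mice of the same number are paired. Their deviations correlated at r = -0.0338, 0.167 and 0.0346 across probes for numbers 1 to 3, where the other pairs ranged from -0.172 to 0.11. These values cannot decide whether the mice are paired, since deviations from a group mean balance within a genotype. The main fit did not take the numbers as pairs. The replicate block left 0 member probes called.

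The median difference of the hnRNPs was 0.0155 and became 0.0414 in the deposited scores and 0.0434 with median centring. That of all members was -0.00429 and became 0.0335 and 0.0356. The cause was not tested. Averaging a gene's tested probes turned Hnrnpa2b1 from 0.0343 to -0.083. Srsf5, at -0.0541, turned to 0.0111 in the deposited scores and 0.0131 with median centring, and ranged from -0.109 to 0.0246 with 1 mouse left out. Apart from probe averaging, 18 of the 33 members kept their sign in every fit in which they were tested and 15 did not. Counts of member probes at an unadjusted p under 0.05 were 5 higher and 6 lower, and fell to 3 and 3 without knockout 1 and to 2 and 3 without knockout 2. The number of mice limits what can be detected.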
